A study of Mus musculus with 2 samples.

Results

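Nonsense-mediated decay (NMD) transcripts are annotated isoforms whose reading frame ends at a stop codon that lies well upstream of an exon junction. Members were all transcripts whose GENCODE biotype, carried in the transcript name of the deposited tables, was nonsense_mediated_decay. There were 7186 of them among 141767 annotated transcripts, beside 58797 protein-coding and 21848 retained-intron transcripts. The biotype is a property of the annotation, so no value below measures decay itself.

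NMD is the pathway that removes mRNAs on which a ribosome stops while an exon junction complex still sits downstream. The helicase UPF1 is its central factor, joined by UPF2, UPF3 and the SMG proteins. Many genes of splicing factors carry cassette exons with an in-frame stop codon, called poison exons. Inclusion of such an exon sends the message to decay, and SR proteins are known to lower their own output in this way.

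The RNA was total RNA of left cerebral cortex. Both samples were labelled female, of 25 days, with the strain label B6CASTF1/J, the F1 of a C57BL/6 and a CAST parent. No treatment or second genotype was labelled, so the libraries form 1 group and are called replicate 1 and replicate 2. RNA input was 300 ng for each, and ERCC spike-ins were added. The labels give separate animal numbers but the same donor identifier for both, so the spread between replicates may be technical only. The replicates are called animals below after the animal numbers, with that question open.

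With 1 group of 2 libraries no test was possible, and every comparison below is a description of these libraries. Estimated counts summed to 31169257 and 27059548 over annotated transcripts. They were distinct libraries, since gene counts over 20429 genes gave a chi-square divided by its degrees of freedom of 7.84. Cortical markers were present in both, such as the vesicular glutamate transporter gene Slc17a7 at 596 and 639 TPM (TPM is a level corrected for transcript length and scaled to a fixed total in each library). The striatal marker Ppp1r1b was also present, at 166 and 115 TPM, and Drd1 and Drd2 were likewise higher in replicate 1. The cerebellar markers Gabra6 and Pcp2 did not exceed 0.15 TPM. Reads of both parental alleles were quantified on the mm10 reference, and the effect of CAST differences on members was not tested.

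Each library was quantified by the authors in a pair of ways. Alignment-based values start from transcriptome alignments. FASTQ-based values were computed on the reads themselves. Alignment-based TPM is used unless the FASTQ-based value is named.

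Sequences are shown first for 8 members in which the stop codon lies in an exon that overlaps no exon of the gene's coding transcripts. Such a stop codon is found in 1435 of the 7186 members. The sequences come from the GENCODE M21 transcript sequences on mm10. Each run is the coding part of that exon, 5′ to 3′ on the transcribed strand, with the stop codon in capitals. The first 7 belong to SR genes, whose proteins bind exonic enhancers and recruit the spliceosome, and the last to a gene of a lipid kinase that makes phosphatidylinositol 4,5-bisphosphate.
Srsf9-205: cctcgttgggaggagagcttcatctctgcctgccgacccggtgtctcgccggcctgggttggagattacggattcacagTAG
Srsf3-201: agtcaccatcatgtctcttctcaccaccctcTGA
Tra2a-202: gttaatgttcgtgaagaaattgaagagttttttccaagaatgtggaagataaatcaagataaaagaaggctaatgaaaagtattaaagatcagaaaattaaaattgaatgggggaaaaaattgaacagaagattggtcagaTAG
Srsf4-204: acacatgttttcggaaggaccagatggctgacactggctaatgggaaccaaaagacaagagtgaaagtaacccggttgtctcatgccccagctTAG
Srsf11-212: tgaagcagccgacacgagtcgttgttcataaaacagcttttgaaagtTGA
Tra2b-206: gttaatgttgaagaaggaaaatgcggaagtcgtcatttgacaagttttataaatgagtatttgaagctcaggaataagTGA
Srsf7-203: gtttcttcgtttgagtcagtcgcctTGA
Pip5k1c-206: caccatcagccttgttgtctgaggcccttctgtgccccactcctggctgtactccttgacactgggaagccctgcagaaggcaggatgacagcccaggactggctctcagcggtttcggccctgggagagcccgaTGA
The Srsf9 run lies at chr5:115328347-115328428 on the plus strand, in exon 2 of 6 of a transcript whose coding start was not found. The Srsf3 run lies at chr17:29039454-29039487 on the plus strand, in exon 4 of 7, and reaches its stop codon after 31 bases. The Tra2a run is at chr6:49252965-49253108 on the minus strand and the Tra2b run at chr16:22259181-22259261 on the minus strand, each in exon 2 of its transcript. The Srsf7 run, the shortest at 28 bases, is at chr17:80205054-80205081 on the minus strand, in exon 4 of 9. The Srsf11 run is at chr3:158023310-158023359 on the minus strand, in exon 3 of 4. The Srsf4 run, at chr4:131884295-131884390 on the plus strand, is in the first annotated exon of a transcript whose coding start was not found. The Pip5k1c run is at chr10:81316692-81316829 on the plus strand, in exon 5 of 7. In all 8 the stop codon lies upstream of at least 1 further junction, from 67 nt before the last junction in Srsf11-212 to 1015 nt in Tra2b-206.

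The most abundant member shows another way to reach an early stop. Ppia-201, from the gene of cyclophilin A (a peptidyl-prolyl isomerase), differs from the coding transcript Ppia-202 within the reading frame by 5 extra bases at the end of the first coding exon. It was chosen for display after its value was seen. The run below goes from the start codon to the stop codon, at chr11:6415911-6418243 on the plus strand with introns removed, and has the 5 inserted bases and the stop codon in capitals.
Ppia-201: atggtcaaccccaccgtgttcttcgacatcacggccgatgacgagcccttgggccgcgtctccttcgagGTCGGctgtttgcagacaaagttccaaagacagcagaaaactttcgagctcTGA
Its reading frame has 120 coding bases from the start codon to the TGA, against 492 coding bases in Ppia-202. Over the whole transcripts, 5 exonic bases of Ppia-201 are absent from Ppia-202, and 429 exonic bases of Ppia-202 are absent from Ppia-201.

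Members came from 4576 genes, of which 4574 are protein-coding, or 20.8% of the 21951 protein-coding genes. Of these, 2987 genes have 1 member and the most in a gene is 18. The median annotated length was 1255 nt, against 1816 nt for protein-coding transcripts, and the median coding length was 303 against 939 bases. A coding start was not found for 2081 members (29.0%). Of the 7184 members with an annotated stop codon, 7146 (99.4% of all members) have it more than 50 nt upstream of the last junction, at a median distance of 334 nt. That spacing is part of how the biotype is assigned and is no finding.

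The stop codon was TGA in 57.9% of members, TAA in 22.5% and TAG in 19.7%. Among the 47808 protein-coding transcripts with an annotated stop codon the shares were 49.4% TGA, 27.8% TAA and 22.8% TAG. Isoforms of 1 gene share stop codons, so these are counts of annotated transcripts and not of independent sites.

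Where the stop codon falls sorts the members into classes. In 4155 members (57.8%) it lay within sequence that coding transcripts of the gene also translate. In 1435 (19.97%) it lay in an exon absent from coding transcripts, the class of the 8 runs shown first. A further 882 (12.3%) had it in an exon that overlaps an exon of a coding transcript, but outside every such exon. These are called stops in intron sequence below, though some may lie beyond an end of the coding transcripts. In 505 (7.03%) the stop codon was also that of a transcript typed coding, and in 504 of these it lay more than 50 nt before the last junction. The coding transcript can be a short or unexpressed one, and whether the stop codon is the gene's main one was not tested. Stop codons in untranslated exon sequence accounted for 112 members, 95 came from genes without a coding transcript, and 2 had no annotated stop.

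**Figure D1:**
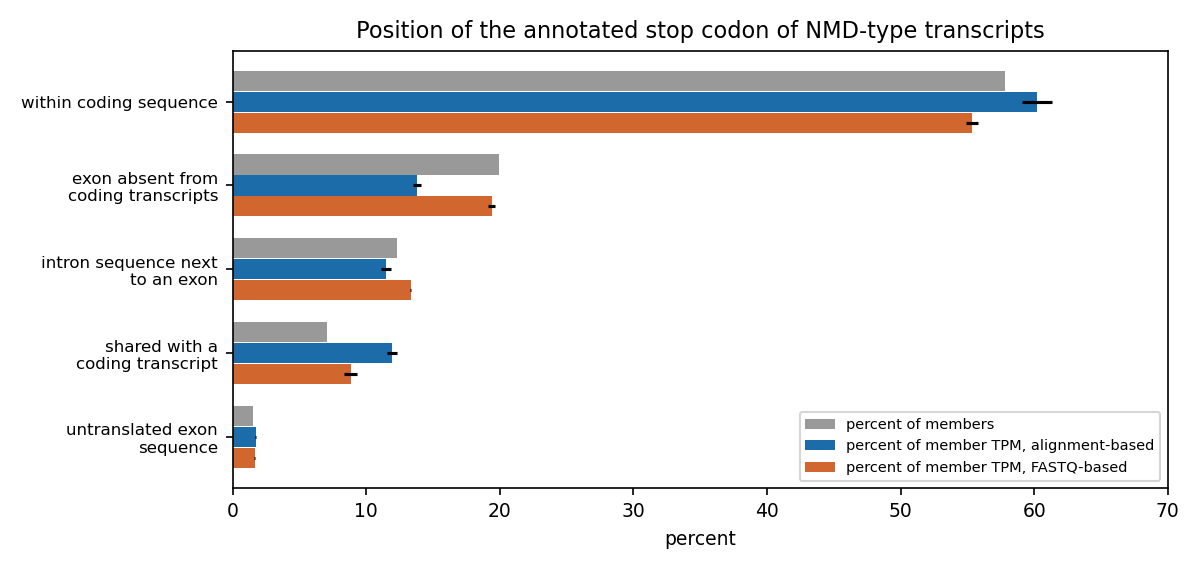
Bars give the percent of the 7186 members (grey) and the percent of member TPM by alignment-based and FASTQ-based values (mean of 2 animals, error bars SD) for the 5 largest stop codon classes. Stops within coding sequence held 60.2% of member TPM by alignment and 55.3% by FASTQ, and stops in exons absent from coding transcripts held 13.8% and 19.4%.

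By abundance the classes kept nearly the same order. Stops within coding sequence held 60.2% ± 1.11 of member TPM (SD, n = 2) and stops in absent exons 13.8% ± 0.284. Stops shared with a coding transcript held 11.9% ± 0.375, more than their 7.03% of members, and stops in intron sequence held 11.5% ± 0.382. The shared-stop class includes the abundant members Atp2a2-203, Mobp-204 and Ppp1cb-205. Their means were 223, 125 and 79.9 TPM, of 12681 TPM summed over all members, so a few transcripts carry much of the excess. With FASTQ-based values the absent-exon class held 19.4% ± 0.260 and the shared-stop class held 8.85% ± 0.474.

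Members were a small fraction of the RNA of each library. They held 1.25% of alignment-based TPM in replicate 1 and 1.30% in replicate 2, a mean of 1.28% ± 0.0364 (SD, n = 2). FASTQ-based TPM gave 2.82% and 2.72%, and the pairs did not overlap. Other types also held more by FASTQ, so a higher FASTQ-based share was not particular to members. The median ratio of FASTQ-based to alignment-based TPM was higher for members than for all transcripts, as given below. Protein-coding transcripts held a mean of 41.1% by alignment and 63.7% by FASTQ, and retained-intron transcripts 4.11% and 7.24%. As a share of estimated counts, which are not corrected for length, members held 1.58% (95% Wilson interval 1.58 to 1.59) and 1.62% (1.61 to 1.62). These intervals cover counting error only.

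Within their own genes the share of members must be higher, since every member is kept and genes without one are left out. Of the TPM of all genes with a member, NMD-type transcripts held 9.64% and 9.60%, coding transcripts 73.3% and 71.7%, and retained-intron transcripts 12.5% and 14%. FASTQ-based TPM gave 13.1% and 12.3% for NMD-type transcripts, 69.1% and 67.6% for coding and 12.3% and 14.2% for retained-intron transcripts. The NMD-type share was thus higher by FASTQ in both replicates and the coding share lower. The mean NMD-type share was 9.62% ± 0.0290 (SD, n = 2) by alignment and 12.7% ± 0.567 by FASTQ, a gap wider than the spread between replicates.

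Detection was set at 1 TPM or more in both replicates. By that rule 1503 members (20.9%) were detected, against 25.9% of all annotated transcripts, 36.8% of protein-coding and 36.2% of retained-intron transcripts. FASTQ-based values detected 2300 members (32.01%), against 31.1% of all transcripts. Both quantifications detected 1176 members, in 1039 genes, while 327 passed only by alignment and 1124 only by FASTQ. Another 1593 members (22.2%) were below 0.01 TPM in all 4 values.

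Detected members were mostly low. Their median was 3.14 TPM, against 6.52 for detected coding transcripts, and their median estimated counts were 101.5 and 93.9. The authors' credibility bounds, whose level the file does not state, spanned 93.2% of the value at the median member, against 45.3% for coding and 80.4% for retained-intron transcripts. In 790 members the lower bound was at least 1 TPM in both replicates. Abundance was concentrated, with the top 12 members holding 16.3% ± 0.550 of member TPM and the top 100 holding 39.8% ± 1.23.

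Members differed from their gene's other transcripts more often by a junction than by bases of their own. Of the 7186, 5997 (83.5%) have a splice junction found in no other transcript of the gene, 3145 (43.8%) have bases of their own and 917 (12.8%) have neither. For 7091 members a nearest coding transcript, by exonic bases not shared, could be named. In 1192 of these (16.8%) the member has no exonic base that the coding transcript lacks, and in 462 (6.52%) it has 1 to 20. That second set held 13.1% ± 0.588 of the TPM of the members compared, with Ppia-201 among them.

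The 12 leading members by alignment-based TPM, among those at 1 TPM or more in all 4 values, began with Ppia-201. It measured 687 and 632 TPM by alignment and 901 and 724 by FASTQ, so both quantifications put it first and replicate 1 higher. The deposited bounds of the alignment-based value were 647 to 681 in replicate 1 and 590 to 625 in replicate 2, and in each replicate the value lies just above its upper bound. Ppia-201 held 81.9% and 80.7% of the gene's TPM by alignment, and 53.6% and 47.9% by FASTQ. The coding transcript Ppia-202 measured 7.60 and 7.02 TPM by alignment but 566 and 416 by FASTQ, so the quantifications disagreed about the coding partner far more than about the member. Ppia has many processed copies in the genome, and its reads are uncertain on that ground too.

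Atp2a2-203, from the gene of the SERCA2 calcium pump of the endoplasmic reticulum, was next with 219 and 226 TPM by alignment and 242 and 237 by FASTQ. All 4 values of the member lay close together. It occupies chr5:122453513-122502174 on the minus strand, has 448 bases of its own, and its stop codon is that of a coding transcript with 1 junction behind it. It held 67.1% and 65.3% of the gene's TPM by alignment, and 50.3% and 48.7% by FASTQ. The nearest coding transcript, Atp2a2-201, measured 57.7 and 65.8 TPM by alignment and 146 and 145 by FASTQ.

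Mobp-204, from the gene of a structural protein of myelin, had the widest gap between animals by alignment among the 12. It measured 96.5 TPM in replicate 1 and 154 in replicate 2, and 150 and 220 by FASTQ, so replicate 2 was higher both ways. The whole gene moved with it, at 169 and 268 TPM, and the member's share was 57.1% and 57.3%. Fewer cells of a type and less RNA per cell cannot be told apart in such bulk samples. Mobp-204 has 1817 bases of its own, reuses the stop codon of coding Mobp transcripts, and overlaps exons of Gm38642 on the same strand.

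Rpsa-206, from a gene of the small subunit of the cytosolic ribosome, measured 137 and 132 TPM by alignment and 102 and 75.02 by FASTQ. The alignment-based pair was higher and tighter. Genes of this family have many near-identical pseudogenes, so these levels are uncertain.

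The other leading members belonged to genes of varied function and ranged from 67.4 to 93.2 TPM by alignment. Cbarp-212, from the gene of a regulator of calcium channels, measured 91.4 and 93.2, and its stop codon lies in intron sequence joined to a coding exon. Prdx6-208, from the gene of a peroxiredoxin, measured 89.4 and 82.9. Tspan5-207, from a tetraspanin gene, measured 80.4 and 85.3 and was 71.0% and 74.0% of its gene's TPM. Ppp1cb-205, from the gene of a catalytic subunit of protein phosphatase 1, measured 82.3 and 77.5. Hnrnpu-206, from the gene of a nuclear matrix RNA-binding protein, measured 71.2 and 73.3. Pip5k1c-208 measured 67.4 and 72.2, and Pfdn5-201, from a gene of the prefoldin chaperone, 69.2 and 68.2. By FASTQ Cbarp-212 measured 167 and 171, Prdx6-208 145 and 125, Tspan5-207 116 and 112, and Pip5k1c-208 146 and 118. Pfdn5-201 measured 119 and 110 by FASTQ, Hnrnpu-206 87.4 and 88.5, and Ppp1cb-205 84.7 and 72.6. Cbarp-212, Tspan5-207 and Pfdn5-201 have neither bases nor a junction of their own.

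**Figure D2:**
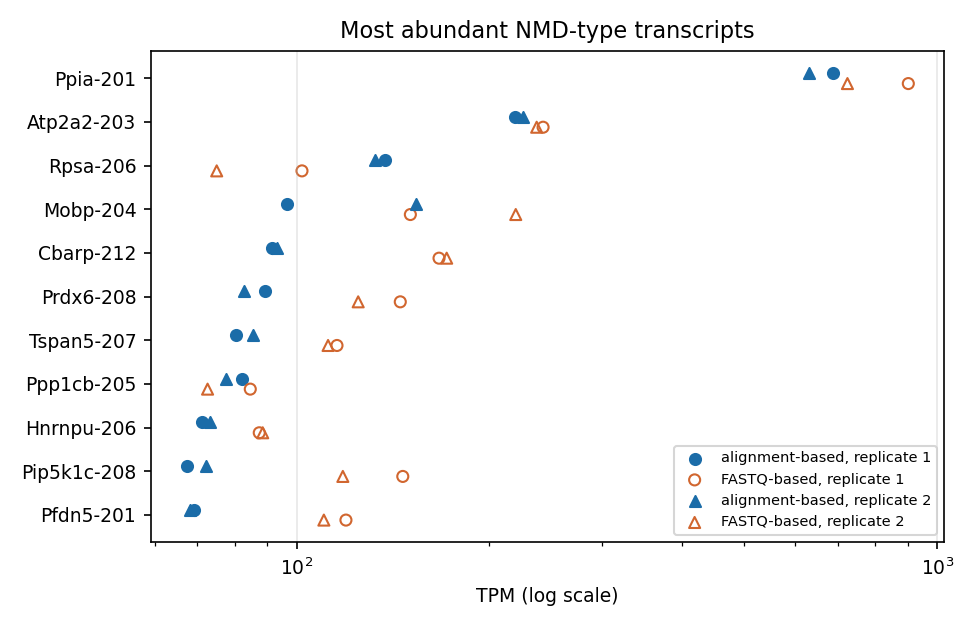
Each row is 1 of 11 leading members and the x axis is TPM on a log scale, with filled symbols for alignment-based and open symbols for FASTQ-based values, circles for replicate 1 and triangles for replicate 2. Ppia-201 stands at 632 to 901 TPM, and Rpsa-206 is lower by FASTQ (102 and 75.02) than by alignment (137 and 132).

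The share of each gene's TPM held by its members was computed for genes at 10 TPM or more in both replicates. Over 2505 such genes the median share was 3.83% (quartiles 0.644% and 13.1%), and 450 genes had a share of 0. In 771 genes (30.8%) the mean share was at least 10%. NMD-type transcripts held at least 50% in both replicates in 75 genes (2.99%). FASTQ-based values gave a median of 7.56% over 2951 genes and 103 genes (3.49%) at or above 50%. Of these, 37 genes were common to both quantifications, which is 49.3% of the alignment-based set and 35.9% of the FASTQ-based set.

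Genes with the highest shares, among those at 10 TPM or more in both quantifications, fell into those on which the quantifications were close and those on which they were not. Gm20716 and Gm20683 were at 100% because their only transcript is typed NMD. Both carry the GENCODE overlapping-locus tag, and their exons overlap those of Adnp and Dpm1, and of Rhot2 and Rhbdl1, on the same strand. Gm20716-201 measured 14.6 and 14.1 TPM and Gm20683-201 measured 10.04 and 11, and reads of the neighbouring genes may be counted in either.

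Mmaa, a gene of mitochondrial cobalamin metabolism, had shares of 86.1% and 84.0% by alignment and 87.2% and 85.7% by FASTQ. Syt16, a member of the synaptotagmin family, had 80.8% and 84.8% by alignment and 81.1% and 78.1% by FASTQ. Its member Syt16-201 measured 33.9 and 36.2 TPM, has 734 bases and 3 junctions of its own, and ends in an exon absent from coding transcripts. Rnf114, the gene of a ubiquitin ligase, had 94.0% and 95.4% by alignment and 54.9% and 68.0% by FASTQ. Pcnp, a gene of a nuclear protein with PEST sequences, had 80.8% and 82.9% against 60.4% and 64.7%. For these 4 genes the NMD-type transcripts were above 50% in all 4 values.

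Ndufa3, a gene of a complex I subunit, had 92.6% and 91.8% by alignment but 0% and 2.12% by FASTQ. Mrps14, of the mitochondrial ribosome, had 81.5% and 84.4% by alignment and 0% in both replicates by FASTQ. The replicates were close within the alignment-based values for both genes, so closeness between animals did not carry over to the other quantification. Ndufa3-204 is 343 nt long, with neither bases nor a junction of its own.

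SR protein genes carried members in 11 of 13 cases, and 9 of the 11 had a detected member. Over all protein-coding genes 20.8% have a member, and 28.1% of those had a detected one. All 11 were at 10 TPM or more, and the median NMD share was 12.2%, with medians of 8.86% in replicate 1 and 15.3% in replicate 2. Over all 2505 genes the median was 3.83%. A share of at least 10% was found in 6 of the 11 (54.5%), against 30.8% of all genes, and 1 gene exceeded 50%. The genes were listed because of their known poison exons, so these counts describe the list and do not test it. Srsf10 (34.9 and 32.6 TPM) and Srsf12 (10.8 and 12.5 TPM) have no annotated member.

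Srsf9 had the highest share, with 61.5% in replicate 1 and 56.6% in replicate 2 by alignment and 55.4% and 48.8% by FASTQ. Its member is Srsf9-205, whose stop codon run is printed above, at 20.8 and 18.5 TPM. Srsf9-205 has 1 junction but no bases of its own, and its coding start was not found. Replicate 1 was higher in both quantifications. Srsf6 followed with 27.7% and 28.7%, and 33.4% and 33.3% by FASTQ, from Srsf6-201 at 12.7 and 13.7 TPM. The stop codon of Srsf6-201 is shared with a coding transcript and has 4 junctions behind it. The member has 405 coding bases, as has its nearest coding transcript, Srsf6-202, which was listed at 0 TPM in all 4 values.

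For Srsf3 the share was 16.9% and 20.6% by alignment and 17.9% and 27.1% by FASTQ, and Srsf3-201 measured 8.59 and 10.4 TPM. Srsf1, the gene of the prototype SR protein, had 14.8% and 16.3%, and 21.2% and 18.2% by FASTQ. Its member Srsf1-204 ends within sequence that is untranslated in coding transcripts, 80 nt before its last junction, and measured 12.3 and 14.4 TPM. No coding start was found for Srsf1-204. Srsf4 had 12.8% and 15.3% from different members. Srsf4-203 was at 2.24 and 0 TPM while Srsf4-204 was at 1.69 and 4.79, so the summed share was closer between animals than either transcript.

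The transformer-2 homologues, which bind purine-rich exonic enhancers, depended most on the quantification. Tra2a had 8.86% and 15.6% by alignment and 64.1% and 40.2% by FASTQ, and Tra2a-202 went from 3.11 and 5.62 TPM by alignment to 32 and 20.9 by FASTQ. Tra2b had 6.64% and 9.79% by alignment and 22.1% and 18.2% by FASTQ, with Tra2b-206 at 2.28 and 3.07 against 11.4 and 8.69 TPM. The alignment-based and FASTQ-based pairs did not overlap for either gene.

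Low shares completed the family. Srsf11 had 4.06% and 3.46%, and Srsf7 had 2.27% and 3.14% with Srsf7-203 at 1.10 and 1.36 TPM. Srsf2 and Srsf5 were at 0% by alignment in both replicates. For Srsf2, 0 of 2221 and 2007 estimated gene counts allows a share of counts of up to 0.135% and 0.149% by counting error. The deposited upper bounds for Srsf2-202 were 2.78 and 5.88 TPM, in a gene of 61.0 and 66.6 TPM, so the bounds are wider than counting error alone. Srsf5 had 0.970% and 1.30% by FASTQ.

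**Figure D3:**
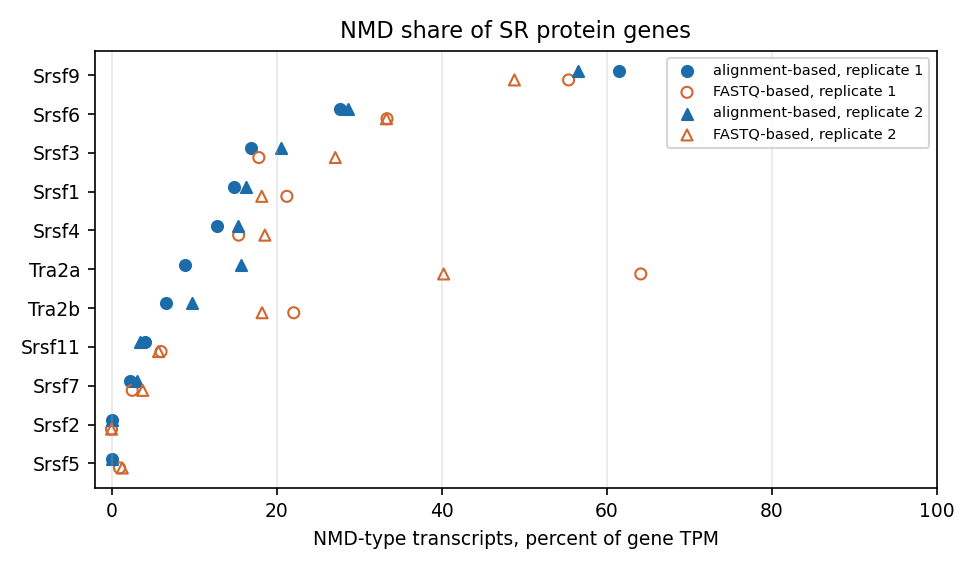
Each row is 1 of the 11 SR protein genes with a member and the x axis is the percent of the gene's TPM in NMD-type transcripts, with filled symbols for alignment-based and open for FASTQ-based values, circles for replicate 1 and triangles for replicate 2. Srsf9 lies between 48.8% and 61.5%, and Tra2a spans 8.86% to 64.1%.

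The hnRNP and related genes, whose proteins coat nascent RNA and often repress exons, had members in 12 of 26 cases. That is 46.2%, against 20.8% of all protein-coding genes. All 12 were at 10 TPM or more, with a median share of 13.9% by alignment and 23.0% by FASTQ. The medians over all genes were 3.83% and 7.56%. By alignment 7 genes (58.3%) were at or above 10%, against 30.8% of all genes. Hnrnpu had 58.5% and 50.03% by alignment and 35.7% and 32.9% by FASTQ. Hnrnpa1, the gene of an exon-silencing protein, had 45.3% and 41.3%, and 45.8% and 34.4% by FASTQ. Hnrnpd had 33.8% and 46.3%, a gap of over 10 points between animals, and 18.1% and 22.2% by FASTQ. Tardbp, the gene of TDP-43 with 10 annotated members, had 35.4% and 36.8%, and 30.5% and 35.3% by FASTQ, so its 4 values were close together.

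Neuronal and tissue-specific splicing regulators had members in 12 of 26 genes (46.2%), against 20.8% of all protein-coding genes. The median over the 11 expressed was 9.08%. Of these 11, 5 (45.5%) were at or above 10%, against 30.8% of all genes. Khdrbs3, a gene of a STAR-family RNA-binding protein, had 17.0% and 18.0% by alignment and 27.4% and 21.7% by FASTQ. Celf2 had 12.1% in both replicates by alignment and 14.7% in both by FASTQ. Qk, the gene of quaking, which is needed for myelin mRNAs, had 7.49% and 7.29%. Celf4 had 4.36% and 4.45% by alignment and was listed at 0 by FASTQ.

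Spliceosome components, helicases and splicing kinases had members in 27 of 30 genes (90%), against 20.8% of all protein-coding genes. All 27 were expressed, with a median share of 5.95% by alignment and 9.21% by FASTQ, and by alignment 8 genes (29.6%) at or above 10%, close to the 30.8% of all genes. Srpk2, the gene of a kinase that phosphorylates SR proteins, had 46.4% and 45.2% by alignment and 39.3% and 32.6% by FASTQ. Ddx5, the gene of an RNA helicase, had 25.6% and 22.3%, and 25.3% and 18.9% by FASTQ. Rbm39 had 14.3% and 11.8% by alignment and 35.9% and 30.6% by FASTQ. Srrm2 went the other way, with 8.11% and 8.76% against 1.42% and 1.01%.

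Of 22 NMD and exon junction complex genes, 4 (18.2%) have a member, near the 20.8% of all protein-coding genes, and 1 of these had a detected one. Over the 3 expressed genes with a member the median share was 0% by alignment and 5.30% by FASTQ. Smg5-202 measured 1.92 and 1.54 TPM, and Smg5 had a share of 5.65% and 4.42% by alignment and 5.16% and 5.43% by FASTQ. Smg1 and Smg6 were at 0% by alignment in both replicates, and Smg1 had 15.2% and 9.19% by FASTQ. All 22 genes were detected at the gene level, from Magohb at 2.63 and 2.84 TPM to Rnps1 at 60.2 and 58.7, with Upf1 at 25.4 and 26.6. Upf1 has no annotated member.

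Outside RNA processing the medians were lower or rested on few genes. Among translation factors, 5 of 22 genes (22.7%) have a member, near the 20.8% of all protein-coding genes. The median share of these 5 was 7.14%. Eif4a2, the gene of a helicase of the cap-binding complex, had 44.9% and 44.8% by alignment and 0.0983% and 7.67% by FASTQ, while Eef1b2 had 28.1% and 36.3% against 61.0% and 50.7%. The 3 genes with a member among 19 known stress and NMD-sensitive genes (15.8%) had a median of 7.47%. Odc1, the rate-limiting enzyme of polyamine synthesis, had 6.59% and 8.34%.

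Synaptic and excitability genes had members in 14 of 46 cases (30.4%), against 20.8% of all protein-coding genes. Their median share was 1.43% by alignment and 3.02% by FASTQ. By alignment 3 genes (21.4%) were at or above 10%, against 30.8% of all genes. The FASTQ-based median over all genes was 7.56%. Nrxn3, the gene of a presynaptic adhesion protein, had 12.8% and 14.6% by alignment and 14.3% and 14.5% by FASTQ. Dlg1, the gene of the scaffold SAP97, had 11.996% and 13.2%, and 9.84% and 10.8% by FASTQ. Gria3, an AMPA receptor subunit gene, had 11.5% and 14.1% by alignment and 3.83% and 0.00352% by FASTQ. The first 2 genes were close in all 4 values and Gria3 was not.

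Ribosomal protein genes had members in 19 of 87 cases (21.8%), near the 20.8% of all protein-coding genes. Their median share was 3.15% by alignment, 1.81% in replicate 1 alone and 1.61% by FASTQ. By alignment 4 genes (21.1%) were at or above 10%, against 30.8% of all genes. Rpsa had 78.7% and 75.5% by alignment and 37.8% and 30.9% by FASTQ, and Rpl12 had 56.3% and 52.3% against 85.6% and 71.8%. Respiratory chain genes had members in 21 of 93 cases (22.6%), also near that 20.8%. The 19 expressed by alignment had a median of 1.05%, and the 20 expressed by FASTQ had 2.50%. By alignment 6 of the 19 (31.6%) were at or above 10%, near the 30.8% of all genes. Ndufa3 and Ndufs4 were above 50% by alignment, as were 2.99% of all genes. Ndufs4, a complex I subunit gene, had 77.3% and 77.7% by alignment and 81.1% and 84.8% by FASTQ, unlike Ndufa3. Atp5f1, a subunit gene of ATP synthase, had 40.5% and 39.4% by alignment and 43.1% and 34.5% by FASTQ.

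**Figure D4:**
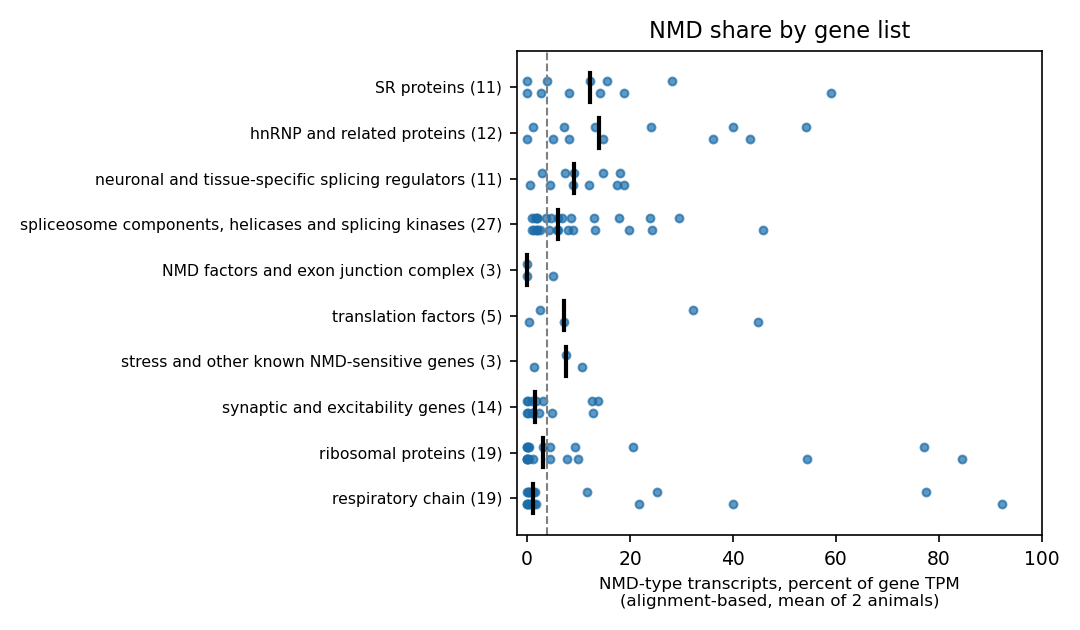
Each point is 1 gene at 10 TPM or more with a member, placed by the mean NMD share of its TPM (alignment-based, 2 animals), black bars are list medians, the dashed line is the median of all 2505 genes and list sizes are in brackets. Medians run from 13.9% for hnRNP genes and 12.2% for SR protein genes to 1.43% for synaptic, 1.05% for respiratory chain genes and 0% for the 3 NMD and exon junction complex genes, against 3.83% for all genes.

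Agreement between animals was closer than agreement between quantifications. Across the 3319 members with a mean of 1 TPM or more in either quantification, log2(TPM + 1) correlated between animals with Pearson's r of 0.892 and Spearman's rho of 0.802 by alignment, and 0.712 and 0.629 by FASTQ. Between quantifications r was 0.446 in replicate 1 and 0.472 in replicate 2, with rho of 0.349 and 0.371. Protein-coding transcripts chosen the same way gave 0.955 between animals by alignment and 0.662 and 0.674 between quantifications. Retained-intron transcripts gave 0.880 between animals and 0.460 and 0.504 between quantifications, near the members' r, but their rho between quantifications was higher, at 0.465 and 0.523. These points are transcripts that share libraries and often reads, so the correlations are descriptions.

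The NMD share of genes was compared in percent, for genes at 10 TPM or more in both quantifications. Scale and filter differ from those of the members above, so the correlations cannot be set against each other. Across 2502 genes the NMD share correlated between animals with r of 0.958 by alignment and 0.895 by FASTQ, and between quantifications with 0.684 and 0.723. The median gap in share was 1.39 percentage points between animals by alignment, 2.35 by FASTQ and 3.18 between quantifications. A gap over 10 points was found in 117, 326 and 558 genes respectively.

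**Figure D5:**
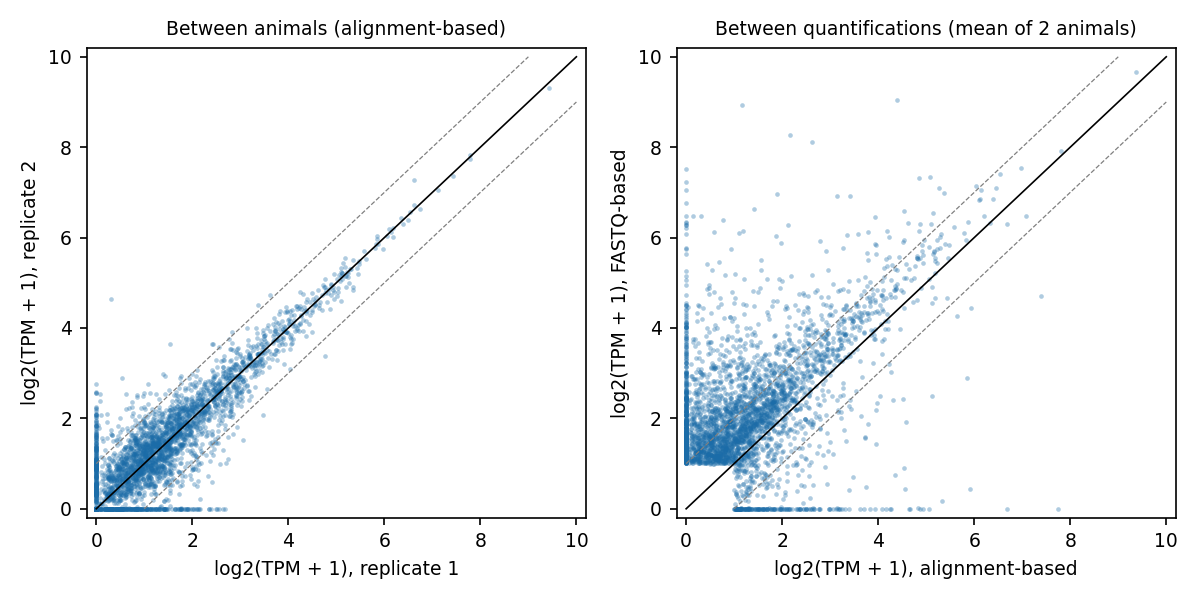
Points are the members with a mean of 1 TPM or more in either quantification, on log2(TPM + 1) axes, with replicate 2 against replicate 1 by alignment on the left and FASTQ-based against alignment-based means on the right. The solid line marks equality and the dashed lines a difference of 1 on this scale, and the right panel is wider, with r of 0.446 and 0.472 in the single replicates against 0.892 between animals.

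Between animals, 381 of 1882 members with a mean of 1 TPM or more (20.2%) were at least 2-fold apart, 160 (8.50%) higher in replicate 1 and 221 (11.7%) in replicate 2. The background was 13.4% of all transcripts, 5.01% and 8.39% in these directions, with 10.6% of protein-coding and 15.1% of retained-intron transcripts. At a mean of 5 TPM or more only 14 of 482 members (2.90%) were 2-fold apart, against 3.01% of all transcripts. The excess over the background was thus seen at low levels, and above 5 TPM members differed between animals about as often as other transcripts.

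The largest gaps at a mean of 5 TPM or more were named in each direction. Rpl13a-202 measured 0.240 TPM in replicate 1 and 23.95 in replicate 2, while the gene was level at 279 and 280. Its deposited bounds, up to 14.5 in replicate 1 and from 4.82 in replicate 2, overlapped, and it was listed at 0 by FASTQ in both replicates. Rnf10-206 measured 1.89 and 11.6, Ywhae-203 measured 4.37 and 11.5, and Dcaf11-216 measured 4.31 and 11.4. By FASTQ Rnf10-206 measured 13.4 and 17.9 TPM, Ywhae-203 0.986 and 5.84, and Dcaf11-216 9.77e-06 and 0.0324. Their genes differed little by comparison, as with Rnf10 at 108 and 128 TPM. The deposited bounds of Ywhae-203, 0.320 to 17.3 and 0.247 to 26.8 TPM, overlapped widely, and those of Rnf10-206, up to 7.08 and from 6.48, and of Dcaf11-216, up to 8.22 and from 4.99, overlapped too.

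In the other direction Sept5-202 measured 26.0 and 9.40 TPM, and Atp2c1-218 measured 10.1 and 3.23. Rpl6-208 measured 10.8 and 5.27, and Sez6-208 measured 15.4 and 7.49. By FASTQ Sept5-202 measured 11.8 and 4.51 TPM, Atp2c1-218 2.96 and 1.42, and Sez6-208 6.32 and 0. Rpl6-208 was listed at 0 by FASTQ in both replicates. The bounds of Sez6-208, 11.7 to 19.0 and 3.05 to 11.6, did not overlap, while those of Sept5-202, 17.5 to 34.3 and 4.76 to 18.0, did, as did those of Atp2c1-218 and Rpl6-208. Ppp1r1b, Drd1 and Drd2 were higher in replicate 1 as given above, and their part in these gaps was not tested.

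Between quantifications, 1325 of 2741 members (48.3%) were at least 2-fold apart in the same direction in both replicates, against 34.1% of all transcripts, 30.7% of protein-coding and 27.5% of retained-intron transcripts. FASTQ-based values were higher in 1155 (42.1%, background 26.1%) and alignment-based values in 170 (6.20%, background 7.96%). The scales themselves differed, since the median log2 ratio of FASTQ-based to alignment-based TPM over all transcripts was 0.67 and 0.62. For members it was 1.00 and 0.92. After division by the all-transcript ratio, 1019 members (37.2%) were apart by the same rule, against a background of 27%. FASTQ-based values were higher in 783 (28.6%, background 16.7%) and alignment-based values in 236 (8.61%, background 10.3%). At a mean of 5 TPM or more, without the division, 393 of 772 members (50.9%) were apart, against 30.7% of all transcripts, so the excess between quantifications was also seen above 5 TPM.

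The gap was not even over transcript length. Members of 500 to 999 nt summed to 3.24 and 2.75 times as much TPM by FASTQ as by alignment, and members under 500 nt to 0.864 and 1.83 times. From 1000 to 1999 nt the ratios were 1.74 and 1.63, and from 2000 nt 1.99 and 1.85. The deposited effective lengths of long transcripts were 99 nt below the annotated length in both replicates by alignment, and 377.5 and 341.06 nt below by FASTQ. The part of these lengths in the gap was not tested.

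Single members showed how far the quantifications parted. Pcp4-202, from the gene of a calmodulin-binding peptide of neurons, measured 0 and 2.45 TPM by alignment and 508 and 462 by FASTQ, or 78.9% and 78.7% of the gene. It has 11 exonic bases that the nearest coding transcript lacks, and its exons overlap those of Igsf5. Ndufa3-204 was the reverse, at 219 and 211 by alignment and listed at 0 by FASTQ. Skp1a-204, from the gene of an SCF ubiquitin ligase subunit, was listed at 0 by alignment and at 187 and 179 by FASTQ.

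Cx3cl1-203, from the gene of the neuronal chemokine fractalkine, was listed at 0 by alignment and at 152 and 145 by FASTQ. Rpl37a-203 was likewise at 0 against 146 and 116, and Dgkz-211, from the gene of a diacylglycerol kinase, at 0 against 106 and 109. The deposited upper bounds of the alignment-based zeros of Skp1a-204, Cx3cl1-203, Rpl37a-203 and Dgkz-211 did not exceed 4.65 TPM.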

How the data were processed

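Total RNA-seq libraries of 2 cortex samples were analysed from transcript tables. The authors used mm10 and GENCODE M21, per a description deposited with the files. The quantification software was not given in the sources used here. Estimated counts, TPM, credibility bounds and the percent of gene TPM in each transcript stand in the alignment-based tables, per the file headers. The deposited FASTQ-based tables give estimated counts and TPM. TPM corrects for effective length and total, so shares move with abundant non-coding RNA. Tables were joined on transcript identifier (141767 of 141767 found in GENCODE M21) after setting aside 97 spike-in or phiX174 entries. Annotation features and sequences came from GENCODE M21.

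Shares, detection (TPM of at least 1 in both samples), gene shares (gene TPM of at least 10 in both) and 2-fold rules were computed with Python 3.11.15, pandas 2.3.3, numpy 2.4.6 and scipy 1.17.1. Correlations of transcripts used log2(TPM + 1), and those of gene shares used the percent itself. The 2-fold rule recovered 199 of 200 members changed 4-fold in data simulated for the comparison of animals (141767 transcripts). A 4-fold change lies well beyond a 2-fold rule, so this recovery says little about the calls above. It gives no rate of false calls. How the rule fares with changes near 2-fold, or with uncertain assignment of reads to isoforms, was not tested.

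Text names the 12 leading members present in all 4 values, the 10 genes of highest share, each SR gene with a member, up to 4 genes of each other list by NMD-type TPM, and the members with the largest gaps. A member and its gene that this rule names are not reported here. Members and lists were chosen with earlier results of these data known. Whether counting used strand is not stated, so overlapping genes are uncertain. Alternatives changed the quantification, unit, filters, pseudocount and scale, and left out each replicate.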

Additional observations from a re-analysis of the deposited data

How the results depend on the processing

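The share of TPM in members was 2.77% by FASTQ, 1.60% of counts, 2.02% among transcripts of at least 500 nt, 2.61% within protein-coding genes and 0.998% with members of complete start only. Detected members numbered 2300 by FASTQ, 2902 at 0.1 TPM and 424 at 5 TPM. Genes at or above 50% numbered 184 with no gene filter, 131 at 1 TPM, 21 at 50 TPM and 139 without retained-intron and processed transcripts. The SR median was 19.7% by FASTQ and 6.25% of counts, beside 7.56% and 1.95% over all genes. Members 2-fold apart between animals numbered 955 of 3025 (31.6%) by FASTQ and 192 on TPM + 1. For these settings no share of all transcripts was at hand, so an excess of members cannot be read from them. At 5 TPM the members apart numbered 14 of 482 (2.90%), against 3.01% of all transcripts. Between quantifications they numbered 393 of 772 (50.9%) at 5 TPM, against 30.7% of all transcripts. The cause was not tested. Leaving out a replicate gave 1.25% to 1.30% for the share, 1837 to 1930 detected members, 86 to 90 genes at or above 50%, 8.86% to 15.3% for the SR median, and 1656 to 1696 members apart between quantifications. The comparison of animals needs both replicates. Dividing FASTQ-based TPM by the all-transcript median ratio, an alternative chosen after seeing the data, gave 1019. Of 74 named gene shares, 62 moved by more than the replicate SD by FASTQ and 46 by counts. No paired analysis was possible because the samples form 1 group. Detected members had median estimated counts of 101.5 and 93.9.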
